A study of Gallus gallus with 6 samples.

Results

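The genes described here encode the proteins of the cytosolic ribosome and a few close relatives. They were chosen by name: every probe set whose only gene symbol starts with RPL or RPS and a digit, or is RPSA or RPLP0 to RPLP2, without the RPS6K kinases. This gave 141 of 38535 probe sets and 67 of the 13009 genes that a single symbol names on the array. Of the 67 genes, 62 encode ribosomal proteins proper, 40 of the large subunit and 22 of the small subunit, and are called standard here. They include RPL26L1, RPL39L and RPS4Y1, which in the chicken RefSeq table have RPL26, RPL39 and RPS4 or RPS4X as synonyms. The other members are the 4 paralogues RPL3L, RPL7L1, RPL22L1 and RPS27L, and RPS19BP1, which encodes a protein that binds RPS19 and is not itself part of the ribosome. RPSA, RPS19 and RPS27 are not among the members that this rule gave.

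A ribosome consists of a small subunit, which reads the messenger RNA, and a large subunit, which joins the amino acids. Each subunit holds ribosomal RNA and many small, mostly basic proteins, most of which are needed in equal numbers. Cells make these proteins in every tissue, and in vertebrates their messenger RNAs share a tract of pyrimidines at the start that lets growth signals govern their translation together. Some members have a paralogue that in mammals is made in particular tissues or conditions, such as RPL3L in striated muscle.

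Total RNA of male Arbor Acres chickens, a broiler breed, killed at 49 days of age was measured on 6 Affymetrix arrays. There was 1 array of adipose tissue, 1 of liver and 4 of mixes of tissues, called mix 1 to mix 4. The labels do not name the tissues of a mix or the number of birds behind an array, and all groups shared breed, sex, age and feed. The stated purpose was to find genes that are prominent in adipose tissue and in liver.

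Values are MAS5 signal intensities, and each array was divided by its own 2% trimmed mean, so a signal of 1 is that trimmed mean. Most probe sets lie below it, since the median of all arrays together was 0.26. The trimmed means were 206.5 on the adipose array, 117.8 on the liver array and between 158.3 and 208.8 on the mixes, so the liver array as deposited was the dimmest and this choice bears on every comparison with it. The labels of the single tissues went with their markers. The summed signal of 5 adipocyte genes was 235.0 on the adipose array, 22.0 on the liver array and 7.41 to 41.2 on the mixes. Of these, CIDEC had 36.1 on the adipose array, 19.6 on the liver array and 0.520 to 4.85 on the mixes. FABP4 had 88.5 on the adipose array and 30.4 on mix 3. The summed signal of 6 hepatocyte genes was 0.879 on the adipose array, 647.1 on the liver array and 2.63 to 46.5 on the mixes. In tissue RNA, fewer cells of a type and less RNA per cell cannot be told apart.

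The probe sets that stand for the standard genes were bright on every array. Each is the brightest of its gene by the rule, so this is a description only, and of the 74 other probe sets of members 56 had a mean signal under 3. The median signal of the 62 standard genes was 46.5 in adipose tissue, 57.9 in liver, and 48.1, 56.3, 62.4 and 42.1 in mixes 1 to 4. Their median percentile among all probe sets was 99.7 in adipose tissue, 99.5 in liver and 99.7 or more in each mix. The 62 probe sets, 0.161% of those on the array, carried 4.85% of the summed signal of the adipose array, 5.21% of that of the liver array, and 4.92%, 5.61%, 6.13% and 4.55% of those of mixes 1 to 4. Dividing an array by a constant leaves these shares as they are, and both single tissues lay within the range of the mixes. After quantile normalization the shares were 5.29% in adipose tissue, 4.30% in liver and 5.14% to 5.61% in the mixes, so that liver then lay below them. Of the 100 brightest probe sets, 27 were those of standard genes in adipose tissue, 12 in liver and 26 to 32 in the mixes. The liver array was thus the one with the fewest of them at the very top, although without quantile normalization their share of its signal lay inside the range of the mixes. Brightness also depends on the probes, so the level of one gene is not set against that of another here.

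**Figure D1:**
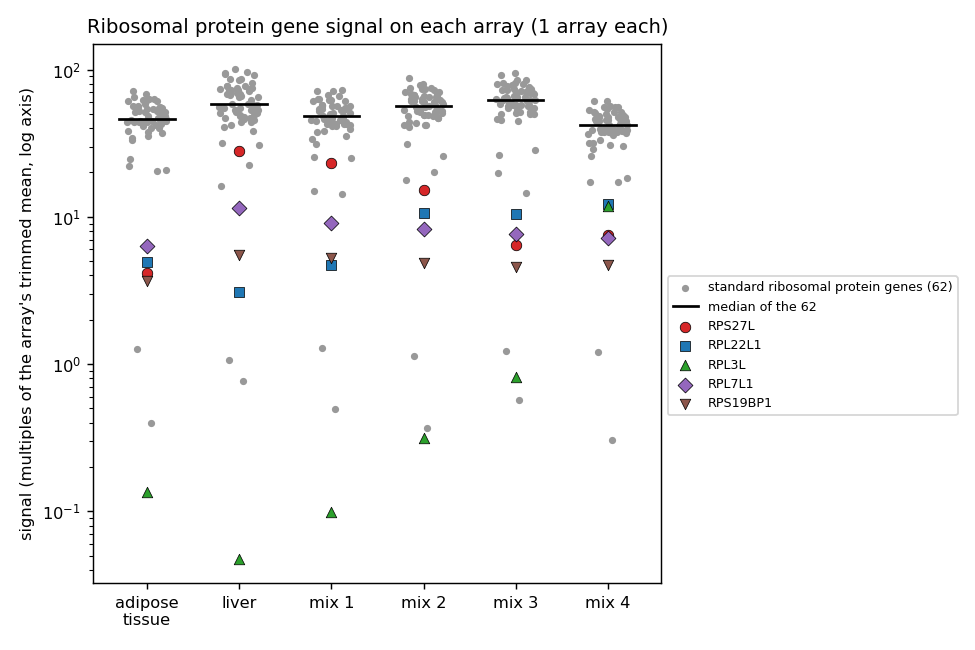
Signal of the ribosomal protein genes on each array as multiples of the array's trimmed mean, on a log axis, with 1 point per gene and 1 array per column. The standard genes crowd around medians of 46.5 in adipose tissue, 57.9 in liver and 42.1 to 62.4 in the mixes, and the paralogues, RPS19BP1, RPL31 and RPS13 lie below those medians.

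For RPL31 and RPS13, the rule gave only faint probe sets. RPL31, of the large subunit, had 1.26 in adipose tissue, 1.06 in liver, and 1.29, 1.13, 1.23 and 1.20 in the mixes. RPS13, of the small subunit, had 0.397 in adipose tissue, 0.769 in liver, and 0.498, 0.367, 0.572 and 0.307 in the mixes. A further probe set annotated to both GNAL and RPS13, and so left out by the rule, had 54.7 in adipose tissue, 89.5 in liver, and 58.8, 68.3, 70.3 and 48.9 in the mixes. RPSAP58, which RefSeq gives RPSA as a synonym, had 37.4 in adipose tissue, 50.4 in liver, and 44.9, 53.3, 56.7 and 38.8 in the mixes on its brightest probe set. The other 60 standard genes are those meant below where RPL31 and RPS13 are left out.

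No member passed the test in adipose tissue or in liver. limma was fitted over all 25844 probe sets with enough signal, and all 67 members were among the genes tested. In adipose tissue against the mixes 0 of 67 members were called at an adjusted p under 0.05, where the background was 0.0% (0 probe sets), and 0 had an unadjusted p under 0.05, where the background was 6.67%. In liver 0 of 67 were called against a background of 0.306%, which is 79 probe sets, and 1 member had an unadjusted p under 0.05 against a background of 11.6%. That member was RPL22L1. With 1 array of each tissue, the spread in these tests is that among the 4 mixes, which hold different tissues, and the median standard error of a member's difference was 0.31 on the log2 scale.

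In adipose tissue the family lay slightly below the mixes, by no more than the genes at large. The median log2 difference of the 67 members was -0.13, beside -0.16 over all 11570 genes tested, and 57 members had a negative and 10 a positive difference. The direction depends on the scaling, since the median was 0.09 with the values as deposited. Adipose tissue lay above all 4 mixes for 3 members, RPL21, RPL23 and RPLP2, against a background of 16.9% of genes. It lay below all 4 mixes for 8 members, against a background of 27.0%. These were RPL7L1, RPL8, RPLP0, RPS15A, RPS19BP1, RPS27A, RPS27L and RPS28. The other 56 lay within the range of the mixes. Without mix 4 the second count was 42, and without mix 3 the first was 6. Leaving out a mix can only keep or raise such counts, whatever the genes. No share of all genes over the remaining mixes is given here, so these later counts have no background.

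In liver the family lay above the mixes with this scaling, while the genes at large lay below. The median log2 difference of the members was 0.22, beside -0.23 over all genes, and 56 members had a positive difference. Liver lay above all 4 mixes for 28 members against a background of 20.6%, and below all of them for 4 members, RPL22L1, RPL31, RPL3L and RPS12, against a background of 34.8%. RPL3L had only 0.048 in liver and 0.099 in mix 1, too faint for their order to be read. Without mix 3 the members above the mixes numbered 47, for which no share of all genes over the remaining mixes is given here. The direction of the family in liver was not the same under every scaling. The median was -0.37 with the values as deposited, -0.32 after quantile normalization and -0.19 with the arrays scaled on their spike-in controls. The members above all 4 mixes then numbered 0, 3 and 6, where 8.15%, 24.4% and 10.5% of all genes were above. The members below all 4 mixes numbered 57, 55 and 49 in the same order, where 60.2%, 27.8% and 52.3% of all genes were below. Against all probe sets tested, whose medians were -0.74, -0.06 and -0.61 under the same settings, the family lay higher with the deposited and the spike-in values and lower after quantile normalization.

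**Figure D2:**
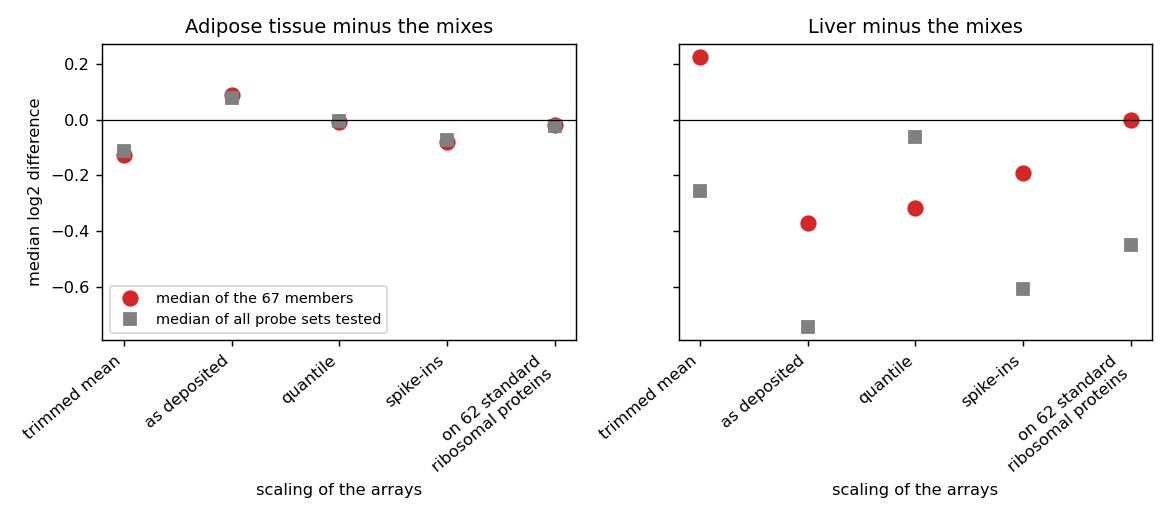
Median log2 difference of the members and of all probe sets tested from the mean of the 4 mixes, for adipose tissue and for liver, under each scaling of the arrays. For liver the members' median was 0.22 with the trimmed mean and -0.37, -0.32 and -0.19 with the deposited values, quantile normalization and spike-ins. With the scaling on the standard ribosomal proteins, the small medians of the members are set by the scaling itself.

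Between adipose tissue and liver, set against each other by size alone, 58 of 67 members were lower in adipose tissue, where 48.7% of all genes were. The median log2 difference was -0.34 for members and 0.03 for all genes. It was 0.47 with the values as deposited, 0.29 after quantile normalization and 0.12 with spike-ins, so its direction too depends on the scaling. Only RPS27L was at least 2-fold lower in adipose tissue, against a background of 14.8%, and 0 members were at least 2-fold higher, against 17.1%.

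**Figure D3:**
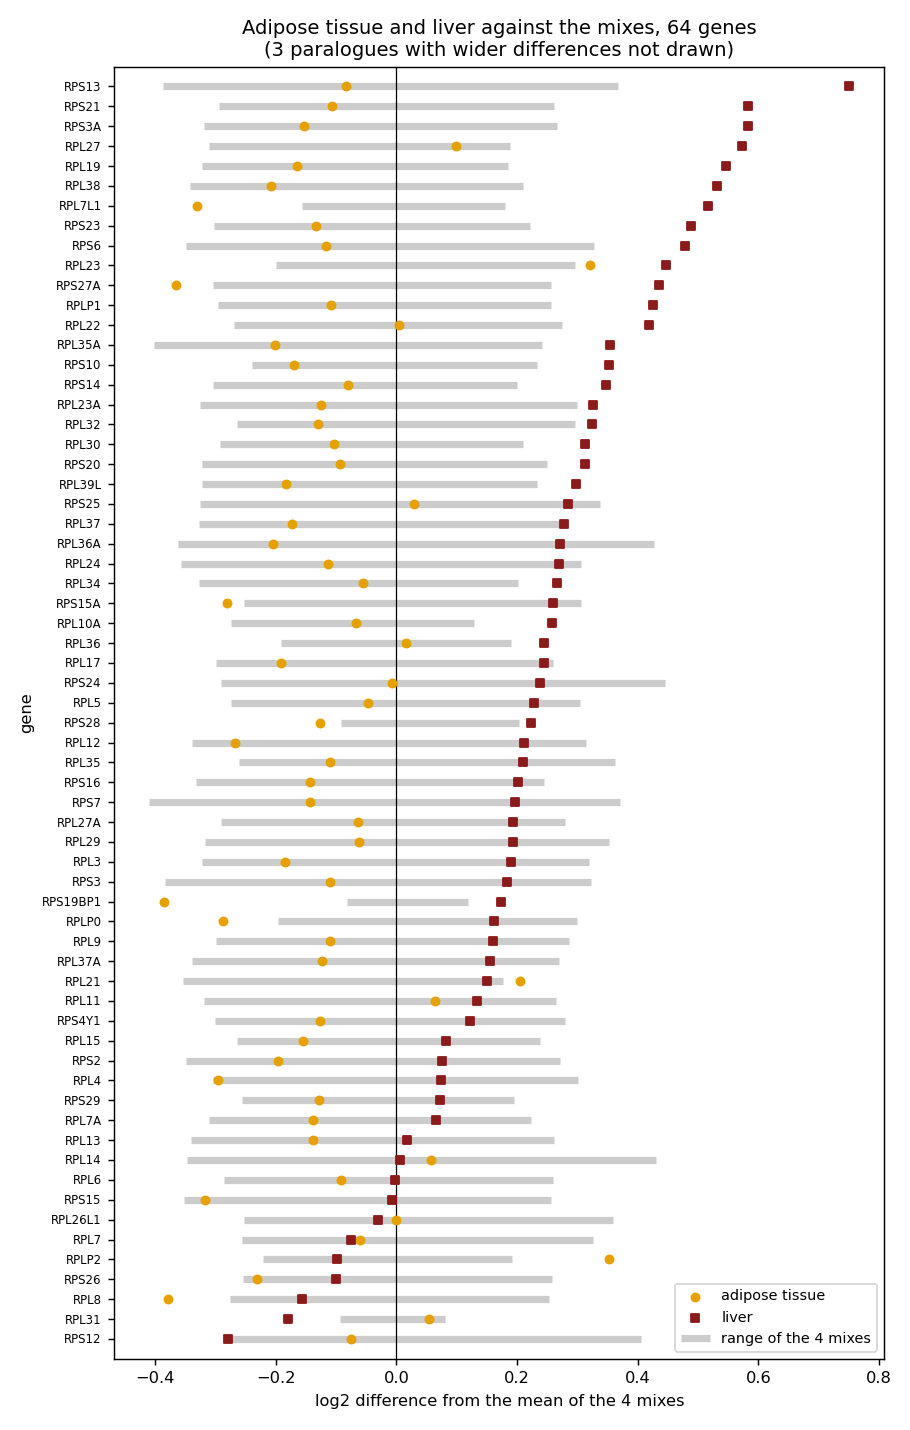
Log2 difference of adipose tissue and of liver from the mean of the 4 mixes for 64 members, arrays scaled by the trimmed mean, 1 row per gene. The 3 paralogues with wider differences, RPL3L, RPL22L1 and RPS27L, are not drawn, and the remaining points lie between -0.38 and 0.75.

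A few members kept their place outside the mixes however the arrays were scaled. Under all 4 scalings, adipose tissue was above every mix for 2 members (background 14.3%) and below every mix for 3 (background 16.0%). Liver was above every mix for 0 members (background 8.48%) and below every mix for 3 (background 25.8%). The last were RPL22L1, RPL3L and RPS12, of which RPL3L was too faint in liver and mix 1 for their order to be read. All 4 shares of members are below their background.

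RPLP2 and RPL21 were the 2 members above every mix in adipose tissue. RPLP2 encodes an acidic protein of the stalk, the arm of the large subunit that engages the translation factors. Its signal was 22.2 in adipose tissue, 16.2 in liver, and 14.9, 17.8, 19.9 and 17.4 in mixes 1 to 4. The log2 difference of adipose tissue was 0.35 ± 0.29 (SE), with an adjusted p of 0.943 in limma. RPL21, of the large subunit, had 45.4 in adipose tissue, 43.7 in liver, and 41.7, 42.1, 44.5 and 30.8 in the mixes. Its margin over mix 3 was narrow, and the difference of 0.20 was smaller than its standard error.

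RPL8, RPS27A and RPS27L were the 3 below every mix in adipose tissue. RPL8, a core protein of the large subunit near the site where peptide bonds form, had 44.5 in adipose tissue, 51.9 in liver, and 54.7, 62.3, 68.9 and 47.8 in the mixes. Its log2 difference was -0.38 in adipose tissue. RPS27A is made as a fusion with ubiquitin, from which the small-subunit protein is cut. It had 44.1 in adipose tissue, 76.9 in liver, and 54.1, 68.0, 61.7 and 46.0 in the mixes. Its log2 difference was -0.37 in adipose tissue, and the value of mix 4 was close to that of adipose tissue for both RPL8 and RPS27A.

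RPS12 was the 1 standard gene below every mix in liver under all 4 scalings. It encodes a protein of the small subunit. Its signal was 44.2 in adipose tissue, 38.37 in liver, and 42.6, 46.6, 61.7 and 38.42 in the mixes. Liver and mix 4 were almost equal with the trimmed mean, and the log2 difference from the mixes was -0.28, with an adjusted p of 0.756 in limma. Under the other scalings it ran from -0.91 to -0.70.

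The other members of the stalk had their own values. RPLP0, the base of the stalk, had 35.4 in adipose tissue, 48.4 in liver, and 41.6, 42.0, 53.2 and 37.7 in the mixes. RPLP1, which pairs with RPLP2 on the stalk, had 51.4 in adipose tissue, 74.4 in liver, and 49.97, 63.1, 66.2 and 45.1 in the mixes. With the trimmed mean adipose tissue was below liver for both and above it for RPLP2, and whether these patterns differ beyond replicate error could not be tested with 1 array per tissue. With the values as deposited adipose tissue was above liver for all 3, by log2 differences of 0.36 for RPLP0, 0.28 for RPLP1 and 1.26 for RPLP2. After quantile normalization it was so too, by 0.17, 0.10 and 0.81, and with spike-ins the differences were 0.02, -0.07 and 0.91.

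Setting each gene against the members' median on its array removes any constant factor between arrays, so the relative values are nearly the same with the trimmed mean, the deposited values and the spike-ins. Quantile normalization can change them. Over the 6 arrays the relative log2 values of the 60 standard genes had a median standard deviation of 0.096, and of 0.11 after quantile normalization. Without this centring, which by itself lowers the spread, it was 0.24 with the trimmed mean, 0.20 with the deposited values, 0.17 after quantile normalization and 0.12 with spike-ins. The 64 mitochondrial ribosomal protein genes, centred on their own median, had 0.22, and all genes tested, centred likewise, had 0.57. These sets were not matched for level. The median log2 level per array was 1.68 to 2.12 for the mitochondrial genes and 5.40 to 5.97 for the 62 standard genes. The part of level in these spreads was not tested. Among the 60 genes 33 were at 0.1 or below. RPL9, RPS4Y1 and RPL37A had the smallest, with 0.016, 0.026 and 0.029. RPL9, of the large subunit, had a signal of 60.9 in adipose tissue, 73.5 in liver, and 61.5, 70.8, 80.1 and 53.4 in the mixes, which followed the family median from array to array. On the relative scale it differed from its mean on the mixes by 0.03 in adipose tissue and by 0.01 in liver.

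In liver, among the 60 standard genes, RPS21 and RPS3A stood furthest above their mean on the mixes on this scale, each by 0.43. Both are of the small subunit. RPS21 had a signal of 50.5 in adipose tissue, 81.5 in liver, and 52.7, 65.2, 57.4 and 44.4 in the mixes. RPS3A had 54.8 in adipose tissue, 91.3 in liver, and 54.7, 70.4, 73.3 and 48.9 in the mixes. Both were above every mix in liver with the trimmed mean, and within their range with the values as deposited. RPL27, RPL19 and RPL38 of the large subunit followed with 0.42, 0.39 and 0.38. Before centring, the liver difference of RPL38 was 0.53 on this probe set and 0.03 and 0.12 on its other bright ones. That of RPL19 was 0.55 on this probe set and 0.23 on its other bright one. The high places of RPL38 and RPL19 thus depend on the probe set. RPL19 had a signal of 62.02 in adipose tissue, 101.6 in liver, and 67.5, 79.0, 78.7 and 55.6 in the mixes. RPS6, the small-subunit protein that S6 kinases phosphorylate, stood 0.32 above. Its signal was 56.7 in adipose tissue, 85.7 in liver, and 57.2, 67.2, 77.2 and 48.3 in the mixes.

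Among the same 60 standard genes RPS12 stood lowest in liver on the relative scale, at -0.43. RPL8 followed at -0.31, and RPS26 and RPLP2 at -0.25 each. RPL7 stood at -0.23, with a signal of 47.1 in adipose tissue, 46.6 in liver, and 46.2, 49.7, 61.5 and 41.1 in the mixes. In adipose tissue RPLP2 stood 0.49 above, RPL23 0.46 and RPL21 0.34, while RPL8 stood at -0.24 and RPS27A at -0.23. After quantile normalization RPLP2 stood 0.26 above, RPL23 0.23 and RPL21 0.33 in adipose tissue, and in liver RPS21 stood 0.47 above, RPS3A 0.37 above and RPS12 at -0.52. RPL23, a large-subunit protein that in mammals also binds the ubiquitin ligase MDM2, had a signal of 20.5 in adipose tissue, 22.4 in liver, and 14.3, 20.2, 14.5 and 17.4 in the mixes. Its value on mix 2 was almost that of adipose tissue. On each array RPL23 or RPLP2 was the faintest of the 60 standard genes. Over these genes the adipose difference went with log2 mean level on the mixes at a Pearson correlation of -0.5 and Spearman -0.27. The part of level in these values was not tested.

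**Figure D4:**
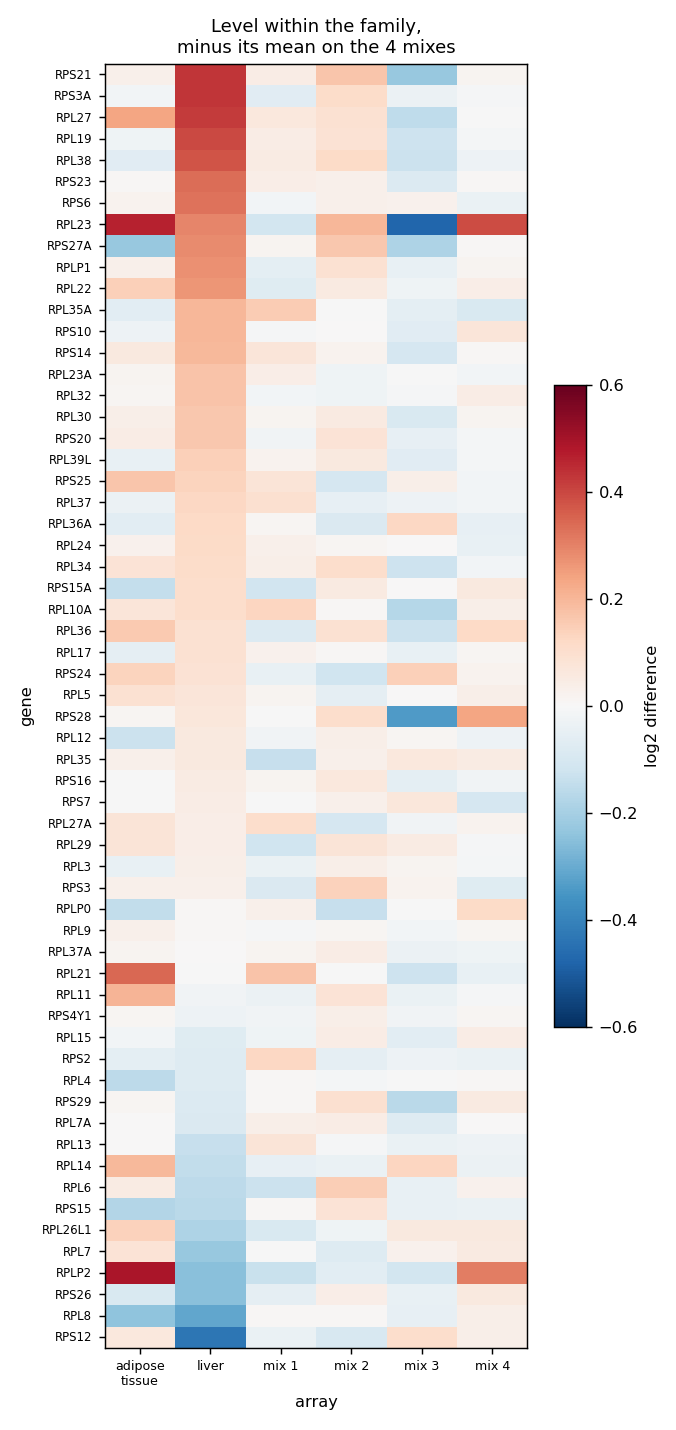
Level of the 60 standard genes on each array relative to the members' median on that array, minus the gene's mean on the 4 mixes, in log2 units shown by colour, with genes down the page and arrays across. In liver RPS21 and RPS3A stand at 0.43 and RPS12 at -0.43, and in adipose tissue RPLP2 stands at 0.49 and RPL8 at -0.24.

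RPL5 and RPL11, which together with the smallest ribosomal RNA can bind MDM2 in mammals, lay within the mixes in both tissues with the trimmed mean. RPL5 had 45.5 in adipose tissue, 55.1 in liver, and 44.7, 48.4, 58.1 and 38.9 in the mixes. RPL11 had 48.0 in adipose tissue, 50.4 in liver, and 42.1, 51.9, 55.2 and 36.8 in the mixes. RPL38, a large-subunit protein needed in mouse embryos for translation of Hox messages, had 56.2 in adipose tissue, 93.9 in liver, and 63.2, 75.2, 73.1 and 51.2 in the mixes.

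RPL3L, RPL22L1 and RPS27L had the largest standard deviations over the mixes among the members, whereas that of RPL7L1, the other paralogue, was below the median of the members. RPL3L had a signal of 0.136 in adipose tissue, 0.048 in liver, and 0.099, 0.315, 0.812 and 11.8 in mixes 1 to 4. It was thus highest on mix 4, and its signal was under 1, the trimmed mean, on the other 5 arrays. Its percentile among all probe sets was 69.8 on mix 3 and 52.0 on mix 2. In adipose tissue, liver and mix 1 it was 19.6 to 38.6. RPL3, its partner, had 41.2 in adipose tissue, 53.5 in liver, and 42.8, 51.4, 58.5 and 37.5 in the mixes. With the trimmed mean it was lowest on mix 4, where RPL3L was highest, and with the other 3 scalings it was lowest in liver. Of the 5 skeletal muscle genes that were found, ACTA1, MYL1, TNNI2 and TNNC2 were also highest on mix 4, while MB was highest on mix 1, with 61.0 against 3.69 on mix 4. The summed signal of the 5 was 6.08 in adipose tissue, 0.993 in liver, and 66.2, 43.1, 50.5 and 227.8 in the mixes, and their part in the result was not tested. The place of RPL3L at the top of mix 4 held under all 4 scalings.

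RPL22L1, which can stand in for RPL22 in mice, had 4.93 in adipose tissue, 3.09 in liver, and 4.72, 10.6, 10.5 and 12.3 in the mixes. Both single tissues and mix 1 were thus low and the other mixes high. Its log2 difference in liver was -1.51 ± 0.58 (SE), with an unadjusted p of 0.043 and an adjusted p of 0.413 in limma, and in adipose tissue it was -0.85 with an adjusted p of 0.925. Liver was the lowest and mix 4 the highest of the 6 arrays under all 4 scalings. RPL22 itself had 38.1 in adipose tissue, 50.8 in liver, and 33.99, 42.2, 46.0 and 31.5 in the mixes. Liver was thus the highest array for RPL22 with the trimmed mean, and the lowest with the values as deposited. The summed signal of 7 cell cycle genes was 7.75 in adipose tissue, 7.34 in liver, and 16.5, 19.9, 46.3 and 20.1 in the mixes, and its part in the values of RPL22L1 was not tested.

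RPS27L, which in mammals is induced by the tumour suppressor p53, had 4.14 in adipose tissue, 27.9 in liver, and 23.2, 15.2, 6.46 and 7.53 in the mixes. Adipose tissue was the lowest array and liver the highest. Its log2 difference was -1.45 ± 0.76 in adipose tissue and 1.27 ± 0.76 in liver (SE), with adjusted p of 0.862 and 0.555 in limma. Adipose tissue was below every mix under all 4 scalings, whereas liver was above every mix only with the trimmed mean and below mix 1 with the other 3. Adipose tissue was 0.149-fold the level of liver, the widest gap between the tissues among the members, and its log2 value of -2.73 became -1.92 with the values as deposited.

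RPL7L1, a relative of RPL7, had 6.37 in adipose tissue, 11.5 in liver, and 9.11, 8.24, 7.69 and 7.20 in the mixes. RPS19BP1 had 3.69 in adipose tissue, 5.47 in liver, and 5.27, 4.86, 4.57 and 4.71 in the mixes. For both, adipose tissue was the lowest array and liver the highest with the trimmed mean.

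**Figure D5:**
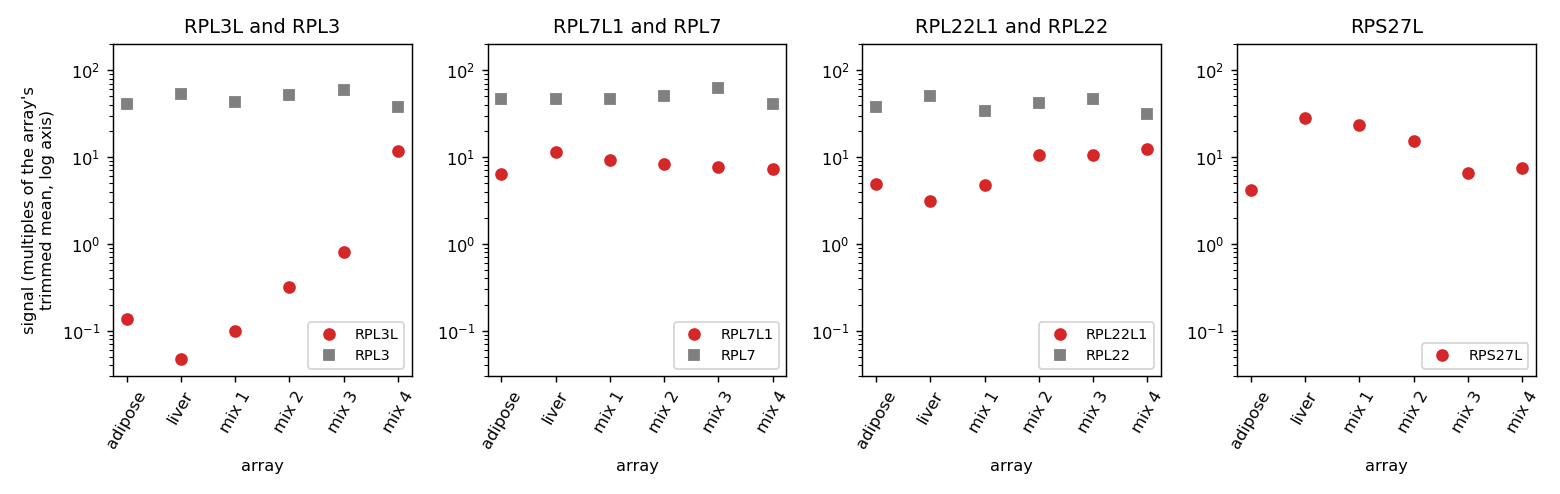
Signal of RPL3L, RPL22L1, RPS27L and RPL7L1 with the related standard gene where it is a member, on each array as multiples of the array's trimmed mean on a log axis, 1 array per point. RPL3L reaches 11.8 on mix 4 and stays at or below 0.812 elsewhere, RPL22L1 is lowest in liver at 3.09, and RPS27L is 4.14 in adipose tissue and 27.9 in liver.

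Among the mixes themselves, the order of the standard genes depended on the scaling. With the trimmed mean, mix 3 was the highest mix for 51 of 62 standard genes (background 30.8%) and mix 4 the lowest for 58 (background 28.2%), and both held for 50 (background 11.8%). With the values as deposited mix 3 was highest for 42 and mix 4 lowest for 33, where 19.8% and 13.1% of all genes were. After quantile normalization these numbered 35 and 7, where the shares of all genes were 29.9% and 28.5%. With spike-ins they numbered 13 and 23, where the shares were 15.3% and 11.4%, and mix 2 was then the highest mix for 28 standard genes and mix 3 the lowest for 20. With the trimmed mean, the median log2 difference of mix 3 from mix 4 was 0.57 for standard genes, 61 of which were higher in mix 3, and 0.05 for all genes, 52.3% of which were. It was 0.17 with the values as deposited, where the median of all genes was -0.32, 0.06 after quantile normalization, where that median was 0.05, and 0.02 with spike-ins, where it was -0.46. Relative to the members' median on each array, RPL23 and RPS28 stood 0.52 and 0.32 above the mean of the other mixes on mix 4 and at -0.64 and -0.45 on mix 3, and RPLP2 stood 0.41 above on mix 4. Over the 60 standard genes this difference was set against log2 mean level on the other mixes. The Pearson and Spearman correlations were -0.63 and -0.21 on mix 4, and 0.3 and -0.06 on mix 3. By rank the relation was thus weaker on mix 4 and of the other sign on mix 3. RPS28, of the small subunit, had a signal of 25.4 on mix 1, 31.3 on mix 2, 26.4 on mix 3 and 25.8 on mix 4, and so was highest on mix 2 and not on mix 3. The summed signals of cell cycle and red cell genes were also highest on mix 3, at 46.3 and 122.4. Only 2 of the 6 red cell genes listed had a probe set. SLC4A1 had 51.9 on mix 3 and 0.409 to 9.04 on the other mixes, and HBA1 had 70.6 and 21.3 to 64.1. The summed signals of brain and skeletal muscle genes were highest on mix 4, at 94.9 and 227.8. TYMS, of the cell cycle list, went otherwise, with 5.17 on mix 3 and 6.66 on mix 4. GAP43, of the brain list, had 0.134 on mix 4. It had no more than 0.245 on any array, too faint to enter the test, so its order is not read. The part of these tissues in the order of the mixes was not tested. In log2 units the members' median standard deviation among mixes was 0.25 and that of all genes 0.47, and the members' value was 0.09 to 0.10 with the other 3 scalings. With the trimmed mean the lists described below were no wider than the members. Their values were 0.24 for cytosolic translation, 0.22 for ribosome assembly and 0.23 for mitochondrial ribosomal proteins.

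Where a gene had several bright probe sets, they did not always give the same difference. Of the 67 genes, 35 had more than 1 probe set. Among their 74 probe sets that are not the brightest, 56 had a mean signal under 3 and 16, from 13 genes, had at least 10. The brightest probe set was chosen by a mean that includes liver, so the gaps below are a description. In 13 of those 16 the liver difference was lower than on the brightest probe set of the gene, with a median gap of -0.15, and in 13 it had the same sign. In adipose tissue the median gap was -0.01. RPL38 had a liver difference of 0.53 on its brightest probe set and of 0.03 and 0.12 on the other 2. RPL19 had 0.55 and 0.23. RPL29 had 0.19 and -0.41, and RPL11 had 0.13 and -0.29, so the direction of these 2 in liver depends on the probe set as well. RPL9 went the other way, with 0.16 and 0.59.

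Other genes of the translation machinery were described by lists. Of 25 genes listed for cytosolic translation, not all of them translation factors, 20 were found. By limma 0 were called in either tissue, with 0 at an unadjusted p under 0.05. Their median log2 difference was -0.14 in adipose tissue and 0.10 in liver, and the second became -0.49 with the values as deposited, -0.43 after quantile normalization and -0.31 with spike-ins. EEF1A1, which brings aminoacyl-tRNA to the ribosome, had 55.6 in adipose tissue, 99.0 in liver, and 64.6, 76.6, 75.5 and 51.8 in the mixes. EIF1, which helps select the start codon, had 23.2 in adipose tissue, 15.8 in liver, and 13.0, 12.4, 16.0 and 17.7 in the mixes.

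Of 44 ribosome assembly genes tested, 0 were called by limma in either tissue, and 1 had an unadjusted p under 0.05 in each. The median difference was -0.15 in adipose tissue and -0.08 in liver. With the values as deposited these were 0.05 and -0.65, after quantile normalization -0.12 and 0.13, and with spike-ins -0.11 and -0.48. SBDS, which helps release an assembly factor from the new large subunit, had 11.7 in adipose tissue, 5.30 in liver, and 4.77, 4.87, 3.43 and 4.36 in the mixes. Its log2 difference in adipose tissue was 1.42 ± 0.34 (SE), with an adjusted p of 0.459 in limma. GNL3, a nucleolar GTP-binding protein, had 4.04 in adipose tissue, 8.24 in liver, and 3.93, 4.47, 4.80 and 3.77 in the mixes.

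The mitochondrial ribosome has its own proteins, most of whose genes carry MRPL and MRPS symbols, and 64 genes with such symbols were tested. They were listed by symbol alone, so a product need not be part of that ribosome. By limma 0 were called in either tissue, and 1 in adipose tissue and 7 in liver had an unadjusted p under 0.05, where the backgrounds were 6.67% and 11.6%. With the trimmed mean adipose tissue lay above all 4 mixes for 3 of them and below for 25, against backgrounds of 16.9% and 27.0%, and liver above for 41 and below for 4, against 20.6% and 34.8%. Liver lay above for 5 with the deposited values, for 40 after quantile normalization and for 13 with spike-ins, and adipose tissue below for 4, 24 and 8. The backgrounds in the same order were 8.15%, 24.4% and 10.5% for liver above, and 17.0%, 22.2% and 23.1% for adipose tissue below. Their median log2 difference in liver was 0.37 with the trimmed mean, -0.18 with the values as deposited, 0.32 after quantile normalization and -0.02 with spike-ins. The medians of the standard cytosolic genes were 0.23, -0.37, -0.32 and -0.19 under the same settings, lower in each. In adipose tissue the medians of the mitochondrial genes were -0.20, 0.01, -0.21 and -0.15, and those of the standard cytosolic genes were -0.12, 0.09, 0.004 and -0.07. MRPL38 had 1.72 in adipose tissue, 5.74 in liver, and 1.79, 1.66, 1.40 and 1.20 in the mixes, and its liver difference of 1.88 ± 0.36 (SE) had an adjusted p of 0.185 in limma. MRPS36, listed by its symbol and not shown here to belong to the ribosome, had 4.49 in adipose tissue, 16.1 in liver, and 5.38, 7.70, 3.94 and 4.32 in the mixes.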

How the data were processed

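Total RNA of 6 samples was hybridised to Affymetrix chicken arrays. The deposited values are signal intensity on a linear scale, made with MAS5 per the submitters' processing notes. Not given in the sources used here are the version and scaling target of MAS5 and the number of birds per array. Groups were taken from the sample titles, although the description field of all 6 samples names adipose tissue.

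Each array was divided by its trimmed mean over all probe sets, leaving out 2% at each end. Values were turned into log2(value + 0.0785), the pooled 25th percentile of scaled signals, so differences of faint genes are understated. Probe sets entered the test when any array exceeded 0.26, the median of all arrays together, and 96 control probe sets were left out. limma 3.58.1 in R 4.3.3 fitted 1 mean per group with a trended eBayes and Benjamini-Hochberg adjustment over all 25844 probe sets. The residual spread is that of the 4 mixes. P-values therefore measure only the spread between these arrays and assume that a single tissue array varies like the mixes. No exact permutation test was run, since with 1 array against 4 its smallest p is 0.4 (two-sided; 0.2 one-sided). A gene is represented by its brightest probe set, and all 67 members were matched by gene number to the RefSeq gene table. No column of the deposited table was left unused.

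Members and lists were chosen with earlier results of these data known. Genes are named by rule: the members with the largest and smallest differences in each comparison, the brightest and faintest, the widest and narrowest over the mixes, those furthest from the family on a mix, the paralogue pairs and a short list of members with known roles. RPL9, RPL29 and RPL37A, and genes named because a count is small, were chosen after their values were seen. Scaling, pseudocount, filter, probe set and left-out mixes were varied. Sequences were not used here.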

Additional observations from a re-analysis of the deposited data

Results flagged for a closer look

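RPL22L1 had a signal of 4.722 on mix 1, apart from the 10.6, 10.5 and 12.3 on the other 3 mixes. On the log2 scale the gap to the nearest mix was 0.838 of the range over the 4 mixes, above Dixon's critical value for 4 samples. On the linear scale it was 0.769, below that value. This was 1 of 46 such checks, and chance alone passes about 1 in 20. That rate holds for samples of 1 population, whereas the mixes hold different tissues, so the check is a description only.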

How the results depend on the processing

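The count of members called by limma stayed at 0 in both tissues under every alternative run, and among values of single named genes 1214 kept to within the spread and 146 moved. The limit behind the counts kept and moved is not given here, so they do not measure how often a direction held. With the values as deposited, the median difference became 0.087 in adipose tissue, -0.371 in liver and 0.469 for adipose tissue against liver, members above and below all mixes numbered 24 and 4 in adipose tissue and 0 and 57 in liver, and the spread over the mixes was 0.104. After quantile normalization the liver median was -0.317 and that of adipose tissue against liver 0.286, the counts were 10 and 20 in adipose tissue and 3 and 55 in liver, and the spread was 0.091. With spike-in scaling these were -0.193 and 0.124, 5 and 31, 6 and 49, and 0.087. Differences of single members also changed sign against the trimmed mean. Of 67 members, 54, 51 and 42 did so in liver with the deposited, quantile and spike-in values. Between the trimmed mean, the deposited and the spike-in values, all genes of an array differ by the same factor. The members therefore shift together there, and their changes of sign are not separate results. In adipose tissue 44, 22 and 3 did so in the same order. Shares of all genes above and below the mixes moved too: in liver they were 8.15% and 60.2% with the deposited values, 24.4% and 27.8% after quantile normalization and 10.5% and 52.3% with spike-ins. In adipose tissue they were 24.9% and 17.0%, 18.9% and 22.2%, and 18.1% and 23.1% in the same order. Scaling on the standard ribosomal protein genes, chosen after seeing the data, gave -0.002 in liver, -0.01 for adipose tissue against liver, 9 and 17 members in adipose tissue, 22 below in liver, and a spread of 0.08. Each array is there divided by the mean of these same genes. The small medians and the small spread are thus set by that scaling and are not a result. Of all genes, 20.1% then lay above and 20.3% below in adipose tissue, and 43.8% below in liver. With the mean of all probe sets of a gene, 0 members lay above and 13 below in adipose tissue, and 8 below in liver. The second brightest probe set gave 0 above in adipose tissue, and 17 above and 8 below in liver. No share of all genes is given here for either choice of probe set. Without the paralogues and RPS19BP1, also chosen after seeing the data, 5 of 62 lay below in adipose tissue and 2 in liver. Of all genes, 27.0% and 34.8% lay below. Above all mixes were 3 of the 62 in adipose tissue and 25 in liver, where 16.9% and 20.6% of all genes were. Apart from what a scaling does by its construction, the cause of these changes was not tested.

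Leaving out 1 mix at a time, the median ran from -0.233 to -0.033 in adipose tissue and from 0.142 to 0.316 in liver. Members above the remaining mixes ran from 3 to 6 in adipose tissue and from 28 to 47 in liver, both highest without mix 3, and those below from 8 to 42 in adipose tissue, highest without mix 4, and from 4 to 5 in liver. Shares of all genes over the remaining mixes are not given here, so these counts have no background. The spread ran from 0.19 to 0.3.

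No paired analysis was possible because adipose tissue and liver have 1 array each and the numbers of the mixes pair with nothing. Signal over background limits RPL3L outside mix 4, RPS13 and RPL31.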
